A study of Mus musculus with 2 samples.

Results

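Ubiquitin-conjugating enzymes (E2 enzymes) were examined in the RNA of 4T1 cells, a mouse mammary carcinoma line that spreads to the lung. The members were all genes that GENCODE M21 (GRCm38) lists as protein-coding with a symbol starting with Ube2, 37 genes out of the 21911 in the deposited table. The family was chosen by a measured value, since Ube2v1 had more than doubled with oxalate whereas the overlapping gene Gm20431 had moved the opposite way. All values here come from that same contrast and are therefore descriptions. Cells had been kept with PBS or with potassium oxalate for 48 h, and 1 library was made per condition. The sample label gives 20 microM oxalate and the treatment protocol gives 20 mM. Both libraries come from the same unmodified line, with no other agent or allele named. With 1 library per condition there was no replicate error, no test of the conditions could be made, and no difference below has a replicate check.

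Ubiquitin is passed along a chain of enzymes. An E1 enzyme activates it, an E2 enzyme takes it over on a catalytic cysteine, and an E3 ligase brings the charged E2 to the substrate. With many E3 ligases, though not all, the E2 largely decides which linkage a ubiquitin chain receives. K48-linked chains send proteins to the proteasome, whereas K63-linked chains serve in NF-kB signaling and in the repair of DNA damage. Some E2 enzymes carry ubiquitin-like modifiers such as SUMO, NEDD8 or ISG15 in place of ubiquitin.

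The value deposited for each gene and library was FPKM, fragments mapped to a gene divided by transcript length and by the library total, so levels of different genes can be compared per length. FPKM gives a share of the library, so it shows neither the number of cells nor the amount of RNA per cell. From steps in the low values, the PBS library held about 56600000 reads and the oxalate library about 36400000, so low genes are less precise in the latter. The epithelial genes Krt8, Krt18, Epcam and Cdh1 lay between 125.33 and 429.31 FPKM. The leukocyte gene Ptprc was listed at 0 in both libraries, the endothelial gene Pecam1 stood at no more than 0.05 FPKM, and the fibroblast gene Col3a1 at no more than 0.75 FPKM.

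Ube2v1 shares most of its exon bases (61.5%) with Gm20431, so the sequences at the boundary between shared and unshared exons are shown first. Ube2v1 (ENSMUSG00000078923) lies on the minus strand at chr2:167607638-167632095 in GRCm38. Gm20431 (ENSMUSG00000089739), also on the minus strand at chr2:167607850-167661496, has 1 annotated transcript of 2367 bases. Its first 5 exons lie in the exons of the upstream gene Tmem189 (ENSMUSG00000090213, chr2:167642608-167689822) and its last 3 exons lie in those of Ube2v1. Of these bases, 694 fall in exons of Tmem189, 1673 fall in exons of Ube2v1 and 0 are in neither. What sets the Gm20431 transcript apart is the junction between its exons 5 and 6. Each line below gives the last 22 coding bases before a splice junction and the first 30 after it, 5′ to 3′, from the GENCODE M21 transcripts. Capitals mark the start of the exon that Ube2v1 and Gm20431 share (chr2:167617829-167617977).
Ube2v1-202, exons 1 and 2: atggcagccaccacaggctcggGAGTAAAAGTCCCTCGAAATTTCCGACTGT
Ube2v1-207, exons 2 and 3: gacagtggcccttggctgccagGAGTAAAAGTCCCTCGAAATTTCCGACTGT
Gm20431-201, exons 5 and 6: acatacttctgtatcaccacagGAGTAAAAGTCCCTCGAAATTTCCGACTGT
Tmem189-201, exons 5 and 6: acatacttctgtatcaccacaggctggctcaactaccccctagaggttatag
The part after the junction is the same in the first 3 lines, and the part before it is the same in Gm20431 and Tmem189.

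Ube2v1 encodes an E2 variant that lacks the catalytic cysteine and works as the partner of Ube2n. Its level was 42.12 FPKM in PBS and 93.84 FPKM in oxalate. The oxalate value was 2.23 times the PBS value, with a log2 fold change of 1.14. Throughout, a fold change is the difference of log2(FPKM + 1) between the libraries. The added 1, a pseudocount, makes the changes of low genes look smaller than they are. Among all 10267 genes averaging at least 1 FPKM, 16 had a larger rise than Ube2v1. Gm20431, by contrast, was at 44.23 FPKM in PBS and at 8.88 FPKM in oxalate, 4.98 times lower, with a log2 fold change of -2.19. Tmem189, whose exons make up the first part of Gm20431, stood at 19.36 FPKM in PBS and 22.45 FPKM in oxalate (log2 fold change 0.20). With PBS, Ube2v1 and Gm20431 were thus at similar levels, and with oxalate most of their signal was on Ube2v1.

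**Figure D1:**
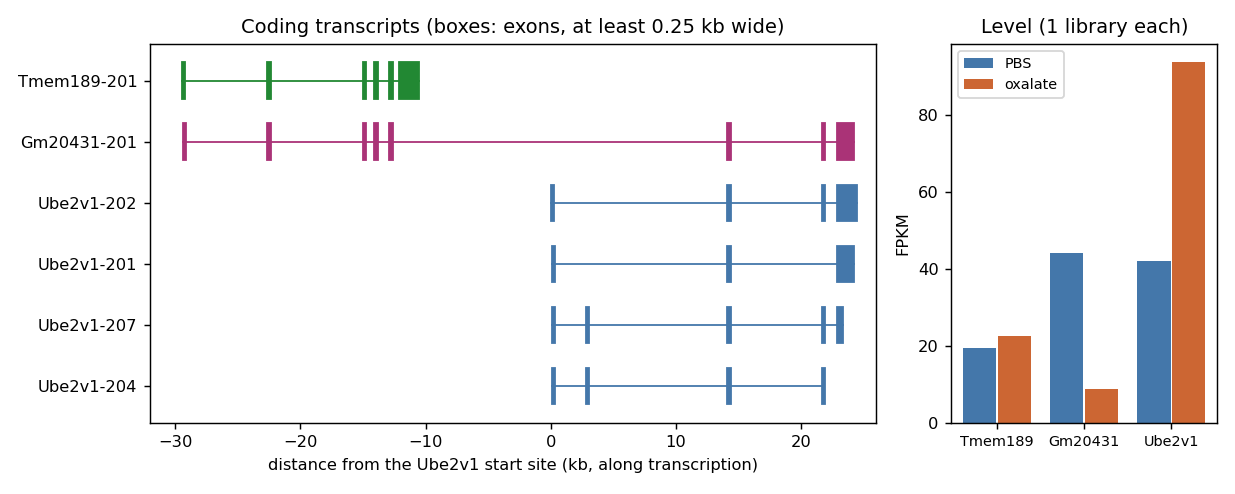
Left, coding transcripts of Tmem189, Gm20431 and Ube2v1 drawn as distance in kb from the Ube2v1 start site along transcription, with exons as boxes (exons under 0.25 kb are drawn 0.25 kb wide). Right, FPKM of the 3 genes in the PBS and oxalate libraries (1 library each); Gm20431 drops from 44.23 to 8.88 while Ube2v1 goes from 42.12 to 93.84.

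Ube2v1 and Gm20431 were then summed, because the values of overlapping genes are uncertain. Their FPKM sum was 86.35 with PBS and 102.72 with oxalate, a ratio of 1.19. Ube2v1 made up 48.8% of this sum with PBS and 91.4% with oxalate. The combined level therefore differed far less than either gene did. The direction of the remaining difference depended on the transcript length that turns FPKM into reads: weighted by the mean coding-transcript length (1246 bases for Ube2v1, 2367 for Gm20431), the oxalate-to-PBS ratio was 0.878. Weighted by the longest coding transcript of Ube2v1 (2041 bases), the ratio was 1.11. With Tmem189 added, the ratio was 1.18 for summed FPKM and 0.941 for the mean coding length. Ube2v1 has 4 annotated coding transcripts of 433 to 2041 bases. Of their bases, between 62.6% (Ube2v1-204) and 97.5% (Ube2v1-201) lie in exons of Gm20431. The part that shared exons play in these values was not tested.

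Counting error is given here as a description of the values that chose the family, and nothing is supported with it. An estimated 2972 reads with PBS and 4254 with oxalate gave a log2 ratio per mapped read of 1.16, with an exact (Clopper-Pearson) 95% interval from 1.09 to 1.22. For Gm20431, with 5928 and 765 estimated reads, the interval ran from -2.43 to -2.21. These intervals compare the 2 libraries, cover counting error only, and take for granted that each read was given to the right gene.

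Of the 37 genes, 32 averaged at least 1 FPKM. Ube2d2b, Ube2dnl1, Ube2dnl2 and Ube2u were listed at 0 in both libraries. Ube2ql1 was at 0.61 FPKM in PBS and 0.84 FPKM in oxalate, from an estimated 92 and 82 reads, with a counting interval of the log2 read ratio from 0.025 to 0.92. Of the 32 genes above the filter, 1 was raised at least 2-fold (Ube2v1) and 0 were lowered at least 2-fold. Over all 10267 genes, 0.292% were raised and 0.36% lowered at least 2-fold. The next largest rise was that of Ube2h, at 9.34 FPKM in PBS and 10.28 FPKM in oxalate (log2 fold change 0.13).

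The other members differed little, and mostly downwards. With oxalate 23 of the 32 (71.9%) were lower by any amount, against 49% of all genes, and nothing is read from this count since the same contrast chose the family. The median log2 fold change of the 32 genes was -0.055 (-0.056 without Ube2v1), against 0.0031 for all genes. Between PBS and oxalate 28 of the 32 stayed within 1.2-fold. Apart from Ube2v1, 0 members were raised at least 1.2-fold (4.75% of all genes) and 3 were lowered at least 1.2-fold (5.19% of all genes): Ube2g1, Ube2j1 and Ube2a.

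**Figure D2:**
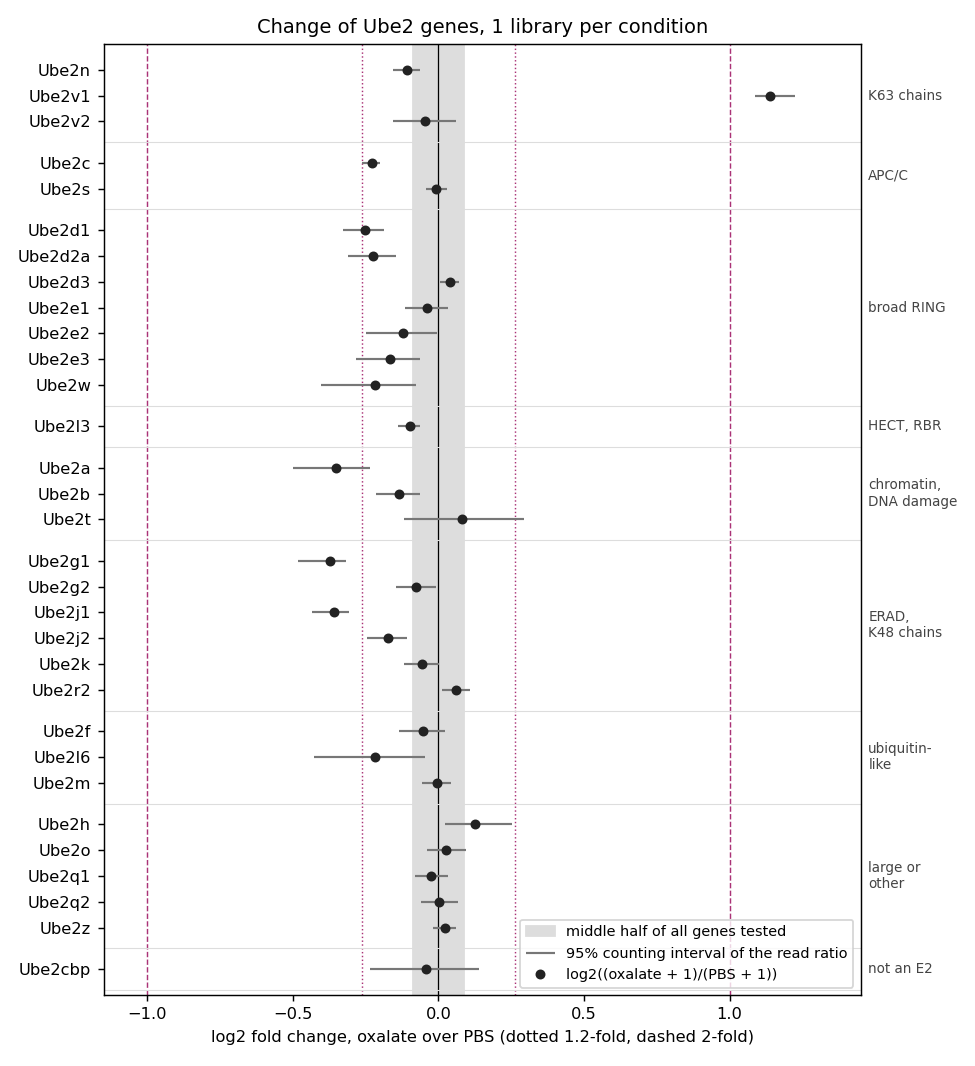
Log2 fold change of 31 of the 32 Ube2 genes averaging at least 1 FPKM (points), by role. Bars are 95% counting intervals of the read ratio at the mean coding length, the grey band is the middle 50% of all genes tested, and dotted and dashed lines mark 1.2-fold and 2-fold; Ube2v1 is at 1.14 and the others lie between -0.37 and 0.13.

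In the members, a higher GC content tended to go with a higher log2 fold change. Over the 32 members, GC content of the longest coding transcript ran from 35.1% in Ube2v2 to 63.4% in Ube2m, with a median of 47.8% against 50.2% for all genes. Of the 19 members below the median of all genes, 15 were lower with oxalate, and of the 13 members at or above it 8 were lower. Over all genes, 57.2% of those below the median and 40.8% of those at or above it were lower with oxalate. Across the 32 members, which share the 2 libraries, Spearman's rho of GC content and log2 fold change was 0.372, and it was 0.199 across 10261 genes. The rho of the members includes Ube2v1, whose rise was not small, and none without it was computed. The part of GC content in the downward differences was not tested.

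The 32 members averaging at least 1 FPKM were, as a group, well expressed in 4T1 cells. Their median level was 43.4 FPKM in PBS and 41.9 FPKM in oxalate. For all genes above the same filter it was 16.5 FPKM in either library. Summed over the 32 genes, the level was 2418 FPKM in PBS and 2358 FPKM in oxalate. Without Ube2v1 the sums were 2375 and 2264 FPKM. Ube2s was the highest member in both libraries. In the order of levels Ube2v1 went from rank 18 with PBS to rank 7 with oxalate. Its level was above that of 75.4% of all genes with PBS and of 89.9% with oxalate. Rank and share rest on the value that chose the family, whose split from Gm20431 is uncertain, so nothing is read from them.

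**Figure D3:**
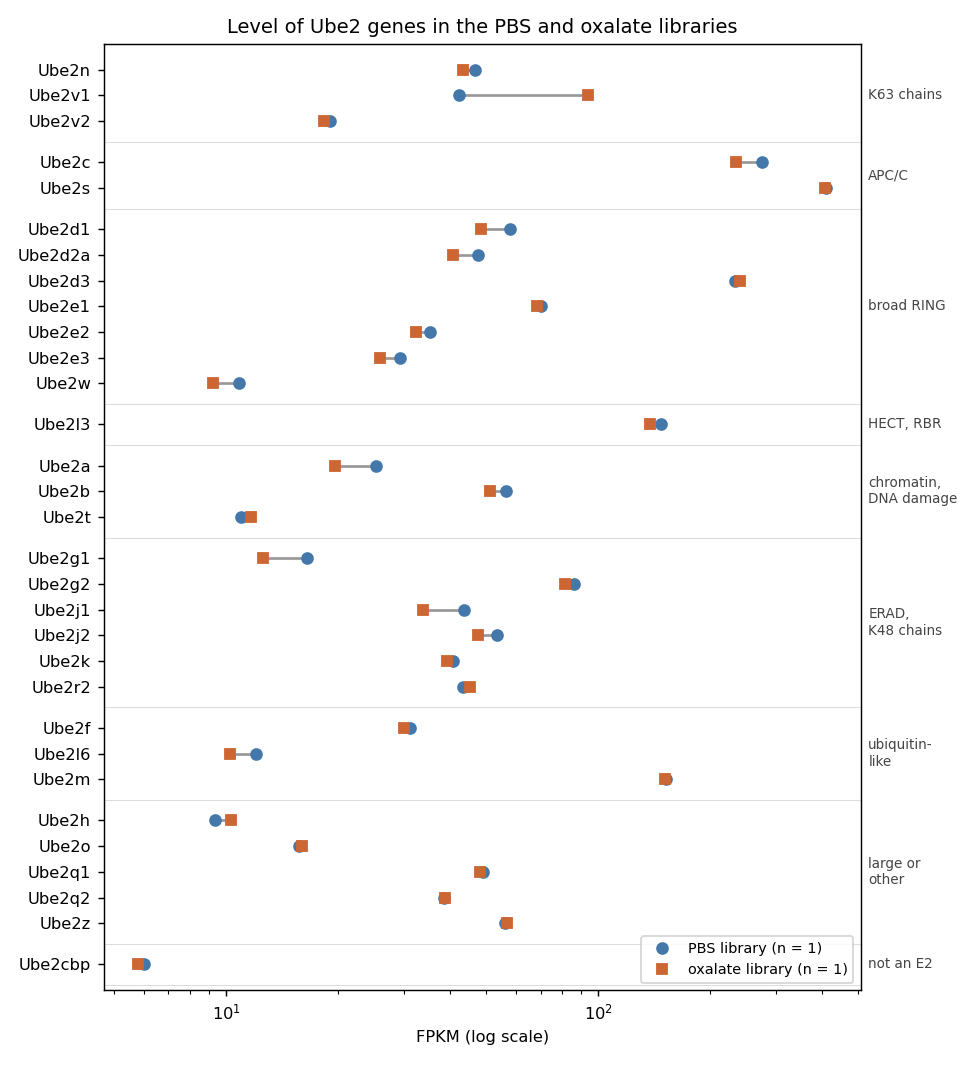
FPKM of 31 of the 32 Ube2 genes in the PBS library (circles) and the oxalate library (squares), 1 library each, on a log axis and grouped by role. Pairs of symbols lie close together except for Ube2v1, which goes from 42.12 to 93.84.

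K63-linked chains are built by Ube2n together with Ube2v1 or Ube2v2. Ube2n, the catalytic subunit, was at 46.57 FPKM in PBS and 43.18 FPKM in oxalate (log2 fold change -0.11). Ube2v2, the paralog of Ube2v1, was at 19 FPKM in PBS and 18.38 FPKM in oxalate (log2 fold change -0.045). Neither followed Ube2v1. Over 145 aligned residues of the translated coding sequences, Ube2v1 and Ube2v2 were 85.5% identical. The share of Ube2v1 in the sum of both variants was 68.9% with PBS and 83.6% with oxalate. The catalytic Ube2n stood at 0.762 times the sum of both variants with PBS and at 0.385 times with oxalate. This ratio and the share before it rest on the Ube2v1 value, whose split from Gm20431 is uncertain. Ube2v1 alone had an oxalate-to-PBS ratio of 2.23, whereas the FPKM sum of Ube2v1 and Gm20431 had a ratio of 1.19. A shift in the balance of Ube2n and its partners is therefore not read from these values.

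The anaphase-promoting complex (APC/C), which drives cells out of mitosis, uses Ube2c to start ubiquitin chains and Ube2s to lengthen them. Ube2s was the highest member, at 409.65 FPKM in PBS and 407.43 FPKM in oxalate. Ube2c was at 274.87 FPKM in PBS and 234.26 FPKM in oxalate (log2 fold change -0.23), 1.17 times lower with oxalate. Its counting interval ran from -0.26 to -0.20. Ube2s, by comparison, had a log2 fold change of -0.0078. Both overlap a listed gene on the opposite strand, and the protocol names no step that keeps the strand, so reads of the shared exon bases cannot be told apart. Ube2c shares 592 exon bases with Tnnc2, which was listed at 0 in both libraries, and Ube2s shares 183 exon bases with Rpl28, which was at 1006 FPKM in PBS and 968 FPKM in oxalate.

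The Ube2d enzymes work with a wide range of RING ligases. Ube2d3 was by far the highest, at 233.32 FPKM in PBS and 239.57 FPKM in oxalate (log2 fold change 0.038). Ube2d1 was at 57.79 FPKM in PBS and 48.39 FPKM in oxalate (log2 fold change -0.25). Ube2d2a was at 47.6 FPKM in PBS and 40.63 FPKM in oxalate (log2 fold change -0.22). Ube2d3 made up 68.9% of the sum of the 3 genes with PBS and 72.9% with oxalate. The proteins of Ube2d2a and Ube2d3 were 96.6% identical over 147 aligned residues, those of Ube2d1 and Ube2d2a 89.1%.

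The Ube2e enzymes resemble the Ube2d enzymes and carry an added N-terminal stretch. Ube2e1 was at 70.14 FPKM in PBS and 68.22 FPKM in oxalate, Ube2e2 at 35.32 and 32.34 FPKM, and Ube2e3 at 29.24 and 25.94 FPKM. All were slightly lower with oxalate, with log2 fold changes of -0.039, -0.12 and -0.17, and their order was the same in both libraries. Ube2w, which modifies protein N termini, was at 10.86 FPKM in PBS and 9.2 FPKM in oxalate (log2 fold change -0.22). Ube2l3, which charges HECT and RING-between-RING ligases, was at 147.66 FPKM in PBS and 137.75 FPKM in oxalate (log2 fold change -0.10).

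Ube2a and Ube2b are the mouse homologs of yeast Rad6, which marks PCNA and histone H2B. Ube2a was at 25.32 FPKM in PBS and 19.62 FPKM in oxalate, 1.29 times lower, with a log2 fold change of -0.35 and a counting interval from -0.50 to -0.24. Ube2b was at 56.34 FPKM in PBS and 51.16 FPKM in oxalate (log2 fold change -0.14). Ube2b was thus the higher of the pair in both libraries, with Ube2a at 31.0% of their sum with PBS and 27.7% with oxalate. Both proteins were 95.4% identical over 152 residues. Ube2t, the E2 of the Fanconi anemia pathway, was at 10.96 FPKM in PBS and 11.65 FPKM in oxalate (log2 fold change 0.081), with a counting interval from -0.12 to 0.29.

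Several members act in the removal of misfolded proteins from the endoplasmic reticulum (ERAD) or build K48-linked chains. Ube2g1 was at 16.54 FPKM in PBS and 12.54 FPKM in oxalate, 1.32 times lower, with a log2 fold change of -0.37. Ube2j1, which is anchored in the membrane of the endoplasmic reticulum, was at 43.59 FPKM in PBS and 33.74 FPKM in oxalate, 1.29 times lower, with a log2 fold change of -0.36. These were the lowest log2 fold changes in the family, and each lay further down than that of its paralog. Ube2g2, the paralog of Ube2g1, was at 86.14 FPKM in PBS and 81.61 FPKM in oxalate (log2 fold change -0.077). Ube2j2, also anchored in that membrane, was at 53.57 FPKM in PBS and 47.4 FPKM in oxalate (log2 fold change -0.17). In this group of 6 genes 5 were lower with oxalate, against 49% of all genes, and nothing is read from so small a count. Ube2k, which builds K48-linked chains, was at 40.82 FPKM in PBS and 39.23 FPKM in oxalate, and Ube2r2, which works with cullin ligases, was the exception at 43.27 and 45.11 FPKM.

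Other members carry ubiquitin-like modifiers. Ube2m and Ube2f, the E2 enzymes of NEDD8, were at 152.05 and 31.23 FPKM with PBS and at 151.33 and 30.04 FPKM with oxalate. Their log2 fold changes were -0.0068 and -0.054, so both were nearly level. Ube2l6, the E2 of the interferon-induced modifier ISG15, was at 12.05 FPKM in PBS and 10.23 FPKM in oxalate (log2 fold change -0.22), with a counting interval from -0.43 to -0.047.

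The large and less studied members differed little, as did most genes. Ube2z, which is charged by the E1 enzyme Uba6, was at 56.12 FPKM in PBS and 56.96 FPKM in oxalate, and Ube2o, a large enzyme with both E2 and E3 activity, at 15.68 and 15.99 FPKM. Ube2q1 was at 48.88 FPKM in PBS and 48.03 FPKM in oxalate, and Ube2q2 at 38.53 and 38.62 FPKM. In this group of 5 genes, with Ube2h, 4 were higher with oxalate and 0 passed 1.2-fold. Of all 10267 genes, 5198 were higher and 9246 stayed within 1.2-fold. Ube2cbp, at 6 FPKM in PBS and 5.8 FPKM in oxalate, carries the prefix but is an E2-binding protein and no E2.

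Within pairs of related enzymes, the balance moved most for Ube2v1 and Ube2v2, by 14.7 percentage points of the pair's FPKM sum. This pair holds Ube2v1, whose rise chose the family, so nothing is read from its place. The Ube2v1 value also depends on the uncertain split from Gm20431 (summed, 86.35 FPKM with PBS and 102.72 FPKM with oxalate). In the 13 other pairs with signal from both genes, the share of the first gene moved by between -3.65 points (Ube2c and Ube2s) and 1.87 points (Ube2e1 and Ube2e3). Protein identity in these pairs ranged from 30.4% (Ube2c and Ube2s) to 96.6% (Ube2d2a and Ube2d3).

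**Figure D4:**
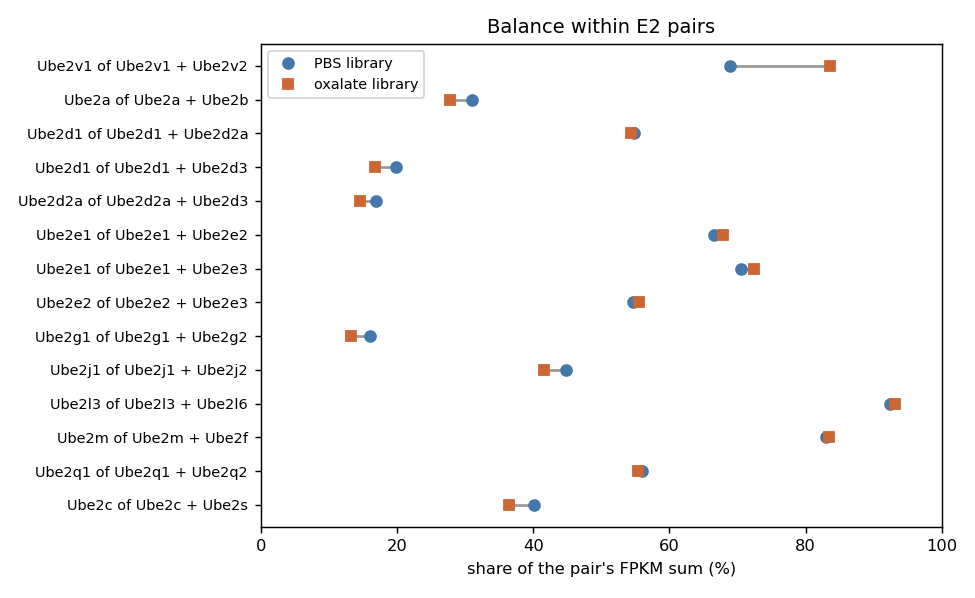
Share of the first gene in the FPKM sum of each pair of E2 enzymes, in percent, in the PBS library (circles) and the oxalate library (squares). Ube2v1 goes from 68.9% to 83.6% of Ube2v1 plus Ube2v2, and the other pairs move by -3.65 to 1.87 points.

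Ube2v1 was also the member whose sequence is least its own. Of the distinct 50-base stretches in its longest coding transcript, 91.2% occurred in transcripts of another annotated gene on either strand, and 81.6% in Gm20431. Next came Ube2e1 with 59.0%, Ube2l3 with 58.9% and Ube2h with 46.3%. Ube2e1 shared most with Nkiras1 (49.3%) and Ube2l3 with Ydjc (54.7%), both on the opposite strand, with levels of at most 1.43 and 11.66 FPKM. Another 3 genes shared stretches with Ube2e1 and another 11 with Ube2l3, and these were not examined. The remaining members shared at most 20.9% (Ube2q2), and 14 of the 32 shared none. Ube2v1 was the single member of the 32 that overlaps a listed gene on the same strand, and 26 of the 32, Ube2v1 among them, have several coding transcripts.

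The other genes of ubiquitin conjugation were taken from a list of 129 genes, of which 121 averaged at least 1 FPKM. With oxalate 57 of them were higher and 64 lower, the median log2 fold change being -0.0036. Counts by direction in the classes below stand against 49% of all genes lower with oxalate. Among the 121 a single gene was raised at least 1.5-fold (0.935% of all genes) and 0 were lowered at least 1.5-fold (1.05% of all genes). It was Trim25, a ligase of antiviral signaling, at 8.74 FPKM in PBS and 14.62 FPKM in oxalate (log2 fold change 0.68).

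Ubb and Rps27a encode ubiquitin, the latter fused to a ribosomal protein. Ubb was at 774.12 FPKM in PBS and 772.21 FPKM in oxalate, and Rps27a at 310.86 and 309.14 FPKM. Their levels differed by little. In oxalate 12 of 13 modifier genes were lower, against 49% of all genes, and their median log2 fold change was -0.079, against 0.0031. For Sumo2, Sumo3, Nedd8, Fau, Ubl5, Ufm1 and Urm1 the log2 fold changes lay between -0.24 (Urm1) and -0.0078 (Sumo3). Isg15 was low, at 3.5 FPKM in PBS and 2.61 FPKM in oxalate, and had the lowest log2 fold change of the modifiers at -0.32.

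Of the E1 enzymes 7 of 8 were above the filter, and 5 of these were higher with oxalate. Uba1, the main E1 of ubiquitin, was at 182.68 FPKM in PBS and 191.03 FPKM in oxalate. Uba6, the other E1 of ubiquitin, was at 13.98 FPKM in PBS and 13.32 FPKM in oxalate. The SUMO E1 subunits Uba2 and Sae1 were at 178.5 and 92.26 FPKM with PBS and at 182.81 and 92.51 FPKM with oxalate. None of these differed by as much as 1.2-fold. The NEDD8 E1 subunits Uba3 and Nae1 had log2 fold changes of 0.22 and -0.15.

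Genes of the partner ligases of the E2 enzymes were split nearly evenly. They include subunits and activators of ligase complexes, so several genes can belong to 1 ligase. Of 68 such genes above the filter 35 were higher and 33 lower, the median log2 fold change being 0.0043. Traf6, the ligase that works with Ube2n and Ube2v1 in NF-kB signaling, was at 6.66 FPKM in PBS and 6.73 FPKM in oxalate. Rnf8, which uses Ube2n at DNA breaks, was at 31.95 FPKM in PBS and 30.03 FPKM in oxalate. Rnf168, which follows Rnf8 there, had a log2 fold change of -0.12, and Rad18, the ligase that works with Ube2a and Ube2b on PCNA, -0.028. The 14 ligases listed for K63-linked chains ran from -0.19 (Xiap) to 0.68 (Trim25), 7 higher and 7 lower. Hltf and Shprh, which extend K63-linked chains on PCNA, were at -0.17 and 0.083, and Traf2 and Birc2 at 0.11 and 0.14. Among 16 genes of the APC/C, including its activators Cdc20 (116.01 and 114.92 FPKM) and Fzr1 (57.74 and 55.36 FPKM), 10 were lower, and Anapc13, a small subunit, was the one lowered at least 1.2-fold (15.6 and 11.95 FPKM). The highest log2 fold change among the APC/C genes was 0.16, of Anapc2. Of 26 genes listed as deubiquitinases, 14 were higher and 12 lower. Most of these cut ubiquitin off again, but Senp1, Senp2, Senp3 and Senp6 act on SUMO and Cops5 on NEDD8.

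Counting all 121 genes, 3 were raised at least 1.2-fold (4.75% of all genes) and 3 lowered (5.19% of all genes), so 1.2-fold changes were no more frequent in the list than among all genes. Besides Trim25, Isg15 and Anapc13 these were the following, named after their values were seen. Otub1, a deubiquitinase that also binds and inhibits Ube2n, was at 181.04 FPKM in PBS and 140.84 FPKM in oxalate (log2 fold change -0.36). Stambp, which cuts K63-linked chains, was at 6.25 FPKM in PBS and 8.81 FPKM in oxalate (log2 fold change 0.44), and Syvn1, an ERAD ligase, at 23.04 and 28.76 FPKM (0.31). Of 7 genes with an E2 fold but no Ube2 symbol 5 were lower, with a median of -0.027. Among them, also named after their values were seen, Cdc34, an E2 of cullin ligases related to Ube2r2, was at 100.28 FPKM in PBS and 91.12 FPKM in oxalate (log2 fold change -0.14).

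**Figure D5:**
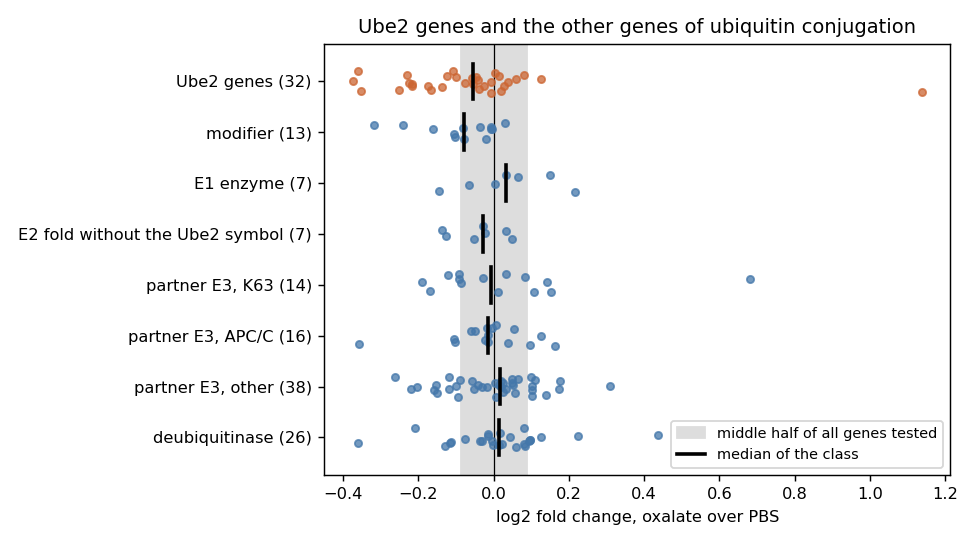
Log2 fold change of the 32 Ube2 genes and of 121 other genes of ubiquitin conjugation by class (points, number of genes in brackets), with the class median as a black bar and the middle 50% of all genes tested as a grey band. Ube2v1 at 1.14 and Trim25 at 0.68 lie apart from the other genes.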

How the data were processed

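RNA of 4T1 cells was selected on oligo(dT) beads, reverse transcribed from random primers and sequenced (Illumina HiSeq2500). FPKM values per Ensembl identifier, rounded to 2 decimals, were deposited for 1 library per condition. The submitters' processing notes name Bowtie2 2.2.8 and TopHat2 2.1.1. The quantification tool, build, annotation and strand setting are not given in the sources used here. GENCODE M21, possibly another release than theirs, supplied symbols for 21848 of 21911 identifiers, coordinates, lengths and GC content.

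Genes averaging at least 1 FPKM were compared with a pseudocount of 1. Reads were estimated from steps in low values (0.0177 and 0.0275 FPKM times kb per read) and the mean coding-transcript length. Members, roles, pairs and pathway genes were chosen with earlier results of these data known. Named were Ube2 genes above the filter, genes overlapping Ube2v1, modifiers, E1 enzymes, pathway genes past 1.5-fold and, as examples, ligases of the K63 and APC/C classes. A few genes that this rule covers are not reported here. Proteins, translated from coding sequences, were aligned globally. Alternatives were other pseudocounts, filters, thresholds, lengths and a rescaling. Scripts were tested on simulated data, with Python 3.11.15, pandas 2.3.3, numpy 2.4.6, Biopython 1.88, scipy 1.17.1 and matplotlib 3.10.9.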

Additional observations from a re-analysis of the deposited data

How the results depend on the processing

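No paired analysis was possible because there was a single library for either treatment, and none could be left out. The 1 member raised at least 2-fold stayed 1 with a pseudocount of 0.1 or 0.001, after rescaling and without a filter. It also stayed 1 with genes averaging at least 5 FPKM and at 1.5-fold. That member was Ube2v1, whose rise chose the family, so nothing is read from the steady count. Without members that overlap another listed gene on the same strand the count became 0, since that leaves out Ube2v1. The log2 ratio of the summed Ube2v1 and Gm20431 values was 0.25 for FPKM and -0.19 for reads at the mean coding length. In settings chosen after the values were seen it was 0.16 at the longest coding length, 0.24 for FPKM with Tmem189 and -0.088 for reads with Tmem189. The median of the E2 genes stayed between -0.057 and -0.042 under the alternatives run. Of 252 values of 84 genes under other pseudocounts and rescaling 1 moved by more than the distance from the middle to the end of its counting interval (Gm20431, from -2.19 to -2.32 with a pseudocount of 0.001, a value inside that interval), and 0 of the genes past 1.2-fold changed direction. Depth limits the low genes, and the absence of replicates limits every difference.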
